A study of Homo sapiens with 16 samples.

Results

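PML and RARA are the genes joined by the t(15;17) translocation of acute promyelocytic leukaemia, and TOP2A cleavage cluster regions (CCRs) at these loci were followed here through 4 topoisomerase poisons and their vehicle. A CCR was taken when its centre lay in the RefSeq body of either gene on hg38 or within 10 kb on each side. The rule used position only and no measured value. It found 101 CCRs among the 1469949 of the 5 lists, 49 at PML and 52 at RARA. The PML window was chr15:73984716-74057827 (73.1 kb) around a gene of 53.1 kb. The RARA window was chr17:40299180-40367643 (68.5 kb) around a gene of 48.5 kb.

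PML encodes a RING-finger protein that builds nuclear bodies, and RARA encodes retinoic acid receptor alpha, a ligand-controlled transcription factor that acts in granulocyte maturation. Their fusion protein blocks that maturation at the promyelocyte, and all-trans retinoic acid and arsenic trioxide release the block by acting on its RARA and PML moieties. The same fusion also arises in patients treated earlier with drugs that trap topoisomerase II on cut DNA, mitoxantrone among them. Breakpoints are known to fall in intron 6, exon 6 or intron 3 of PML and in intron 2 of RARA. The gene table used here has no exons, so positions are given along each gene and as coordinates. Which CCRs lie in those introns was not analysed here.

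The cells were K562, an established line from a chronic myeloid leukaemia in blast crisis with the BCR-ABL1 fusion, and so not of promyelocytic origin. Etoposide (25 µM), genistein (50 µM) and mitoxantrone (2 µM) were given for 1 h and p-benzoquinone (8 µM), a reactive benzene metabolite, for 4 h, all in 0.05% DMSO. Vehicle cells had 0.05% DMSO alone for 1 or 4 h, and no label says which library had which. After lysis and sonication, TOP2A was captured with an antibody and the DNA bound to it was freed and sequenced, so TOP2B was not measured. The lists pool amplified libraries, with 3 each behind DMSO and etoposide, 2 each behind genistein and p-benzoquinone, and 1 behind mitoxantrone. A further p-benzoquinone library is unamplified by its title and amplified by its description, and no label ties it to the list. With 1 pooled list per treatment there is no replicate value and no test between treatments. Every interval below is an exact 95% interval that covers counting error only, not differences between cultures. No molecular identifiers are named, so PCR copies of a molecule may be counted with it.

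On chromosomes 1 to 22, X and Y the DMSO list held 310038 CCRs. The etoposide list held 182582, the genistein list 415215, the mitoxantrone list 202865 and the p-benzoquinone list 359249. Each CCR carries a deposited value without a stated unit, which was ranked within its own list. The lowest value was 1.84 for DMSO. Etoposide and p-benzoquinone CCRs began at 1.82, those of genistein at 3.72 and those of mitoxantrone at 3.87. Whether the lists differ in scale or in how weak a region they admit was not tested. The depth of each library is not known from these lists.

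Start sites are shown first, because the sequence there is at hand. Of the 6 RefSeq start windows at the 2 genes, 3 were touched by a CCR of some list. The share of all start windows touched by a CCR of any list was not measured, so that count has no matching background. A start window runs from 250 bases before to 50 bases after a transcript start (RefSeq, GRCh38.p14). Capitals mark the bases under a CCR, and the sequences read 5′ to 3′ on the strand of the transcript.
RARA, chr17:40308930-40309229, plus strand, genistein CCR: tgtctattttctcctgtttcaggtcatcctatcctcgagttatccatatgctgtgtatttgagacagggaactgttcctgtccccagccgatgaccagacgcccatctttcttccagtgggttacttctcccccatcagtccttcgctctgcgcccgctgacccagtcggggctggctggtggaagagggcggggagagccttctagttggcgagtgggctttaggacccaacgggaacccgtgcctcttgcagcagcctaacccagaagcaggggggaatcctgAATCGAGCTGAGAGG
LOC105371934, chr17:40322475-40322774, minus strand, p-benzoquinone CCR: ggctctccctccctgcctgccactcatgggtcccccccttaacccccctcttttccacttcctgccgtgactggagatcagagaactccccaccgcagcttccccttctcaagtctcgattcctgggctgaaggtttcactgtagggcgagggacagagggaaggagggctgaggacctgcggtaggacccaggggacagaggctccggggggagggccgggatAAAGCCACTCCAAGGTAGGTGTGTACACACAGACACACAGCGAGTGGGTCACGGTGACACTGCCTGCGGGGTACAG
RARA-AS1, chr17:40343087-40343386, minus strand, p-benzoquinone CCR: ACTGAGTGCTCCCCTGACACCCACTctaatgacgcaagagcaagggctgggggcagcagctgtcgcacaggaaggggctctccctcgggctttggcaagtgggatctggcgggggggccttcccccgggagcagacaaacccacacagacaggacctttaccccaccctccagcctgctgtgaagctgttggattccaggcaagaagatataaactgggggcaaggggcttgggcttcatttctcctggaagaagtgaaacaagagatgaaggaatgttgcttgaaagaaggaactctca

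At the outermost RARA start, a genistein CCR (chr17:40309215-40309382, value 10.76) covered the last 15 bases of the window and ran into the gene. The 2 long noncoding RNAs inside RARA each had a p-benzoquinone CCR at their start window, over 76 bases for LOC105371934 and over 25 bases for RARA-AS1. Their values were 9.17 and 8.2, at percentiles 81.1 and 76.4 of the p-benzoquinone list. The 2 inner RARA start windows, beginning 8.8 and 32.7 kb from the gene start, had no CCR in any list. Nor had the window of the divergent neighbour STOML1 (chr15:73994573-73994872, minus strand), which spans the start of PML. The nearest CCRs to it were a p-benzoquinone CCR 393 bp away and a DMSO CCR 492 bp away. Over the 34935 start windows of the genome, 7.35% were touched by a p-benzoquinone CCR, 5.03% by a genistein CCR, 4.85% by a DMSO CCR, 2.56% by an etoposide CCR and 2.39% by a mitoxantrone CCR. Each list touched at most 2 of the 6 windows, and these contacts are given as a description.

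PML had more CCRs in vehicle cells than most genes of its length. Its window held 15 DMSO CCRs (interval 8.40 to 24.7), or 2.05 per 10 kb (1.15 to 3.38), against 1.12 over the callable genome. Among genes of like length, where the shorter of the 2 windows is at least 0.8 times the longer, 4.46% of 2873 reached that density. Etoposide gave 6 CCRs, or 0.821 per 10 kb (0.301 to 1.79), genistein 9, or 1.23 (0.563 to 2.34), mitoxantrone 8, or 1.09 (0.472 to 2.16), and p-benzoquinone 11, or 1.50 (0.751 to 2.69). The genome densities of those lists were 0.661, 1.50, 0.734 and 1.30 per 10 kb. All 4 poison intervals at PML included the genome density of their list.

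RARA had its highest density under p-benzoquinone, and a vehicle density that depended on weak CCRs. It held 13 DMSO CCRs, or 1.90 per 10 kb (1.01 to 3.25), which 8.41% of 3019 genes of like length reached. With CCRs of a value of at least 4 alone, the DMSO density fell to 0.730 per 10 kb, 0.961 times the genome density under that limit. Under p-benzoquinone it held 18 CCRs, or 2.63 per 10 kb (1.56 to 4.16), 2.02 times the genome density (1.20 to 3.20), and 7.98% of genes of like length reached it. Etoposide gave 6 CCRs (0.876 per 10 kb, 0.322 to 1.91), genistein 10 (1.46, 0.700 to 2.69) and mitoxantrone 5 (0.730, 0.237 to 1.70). Those 3 densities were 1.33, 0.972 and 0.995 times the genome density, with intervals that included it. Of the 10 window densities, the intervals of 2, PML in DMSO and RARA under p-benzoquinone, lay wholly above the genome density.

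**Figure D1:**
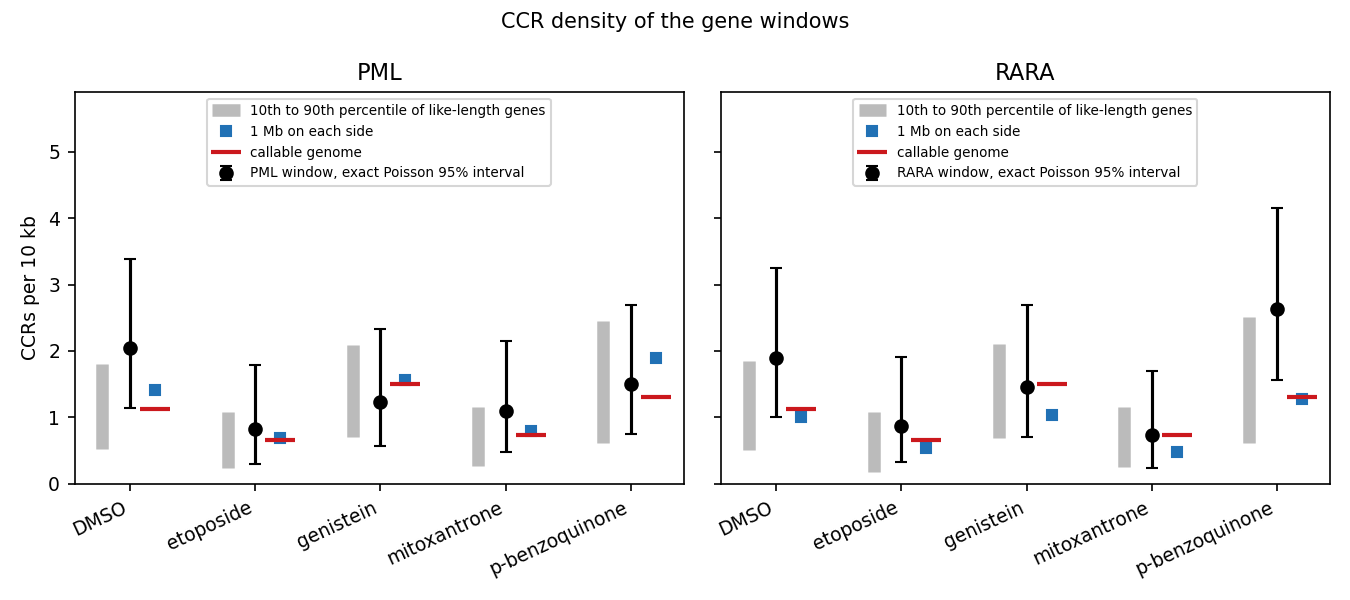
CCRs per 10 kb of the PML and RARA windows in each list (black points, exact Poisson 95% intervals), beside the 10th to 90th percentile of genes of like length (grey bars), the 1 Mb on each side (blue squares) and the callable genome (red lines). PML in DMSO (2.05) and RARA in DMSO (1.90) and under p-benzoquinone (2.63) stand above the grey bars, while the other points lie within them.

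The surroundings of the 2 genes differed. Around PML, the 1 Mb on each side held 1.46 times the genome density under p-benzoquinone and 1.26 times in DMSO, with 1.04 to 1.08 times for the other lists. Around RARA the values were below the genome density in every list, from 0.661 times under mitoxantrone to 0.984 under p-benzoquinone. The density of RARA over that of its surroundings was 1.90 in DMSO, 1.62 under etoposide, 1.41 under genistein, 1.51 under mitoxantrone and 2.05 under p-benzoquinone. The RARA intervals for etoposide, genistein and mitoxantrone included the local densities of 0.540, 1.035 and 0.485 per 10 kb. PML was 1.46 times its surroundings in DMSO, 1.18 under etoposide and 1.39 under mitoxantrone, but 0.789 under genistein and 0.794 under p-benzoquinone. Every PML interval included the local density of its list, also in DMSO, where that density was 1.41 per 10 kb. Within single lists the genes did not separate beyond counting error. RARA over PML in density was 0.926 in DMSO (0.405 to 2.09), 1.07 under etoposide (0.285 to 3.99), 1.19 under genistein (0.433 to 3.30), 0.667 under mitoxantrone (0.172 to 2.31) and 1.75 under p-benzoquinone (0.782 to 4.09).

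Against vehicle, 7 of the 8 scaled ratios were below 1, and all 8 intervals included 1. The ratios divide the CCR number under a poison by that in DMSO and by the ratio of list sizes. At PML the etoposide ratio was 0.679 (0.216 to 1.85) and the genistein ratio 0.448 (0.173 to 1.09). Mitoxantrone stood at 0.815 there (0.299 to 2.05) and p-benzoquinone at 0.633 (0.263 to 1.47). At RARA the etoposide ratio was 0.784 (0.244 to 2.21) and the genistein ratio 0.574 (0.225 to 1.42). Mitoxantrone stood at 0.588 (0.164 to 1.76) and p-benzoquinone, alone above 1, at 1.19 (0.554 to 2.65). The 4 ratios of a gene share its DMSO number, which was high at both genes, so they are not independent. Of the 8, PML under genistein passed 2-fold, in the lower direction, as did 11.6% of genes of PML's length and 16.2% of all measured genes. That call was lost without the flanks and with scaling to 1 Mb on each side, both at -0.88 on the log2 scale. Of genes of PML's length, the share more than 2-fold lower was 12.7% under etoposide and mitoxantrone alike and 6.72% under p-benzoquinone. The share higher was 9.54% under etoposide, 7.10% under genistein, 8.53% under mitoxantrone and 11.3% under p-benzoquinone. Of genes of RARA's length, 13.8% were lower under etoposide, 12.6% under genistein, 13.6% under mitoxantrone and 7.02% under p-benzoquinone. Higher were 10.5%, 7.32%, 8.88% and 12.5% in the same order. Exposure was 4 h for p-benzoquinone and 1 h for the rest, so poisons are set side by side with no test between them.

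**Figure D2:**
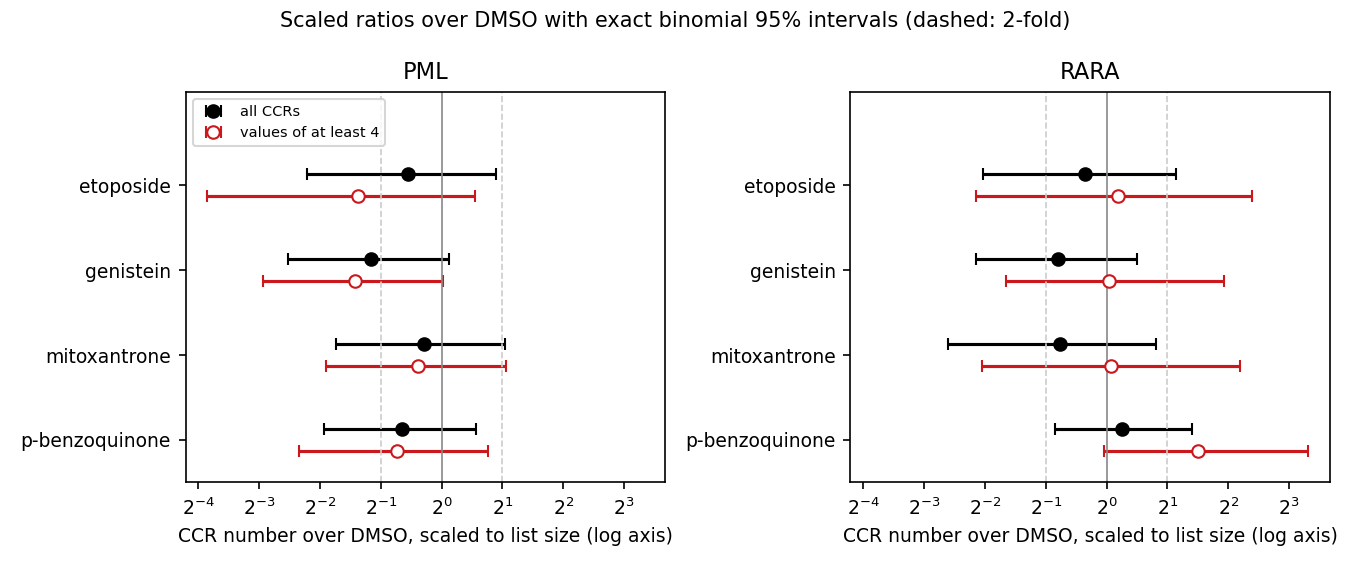
CCR number over DMSO, scaled to list size, for each poison at PML and RARA, with exact binomial 95% intervals on a log axis, from all CCRs (black) and from those with a value of at least 4 (red, open). All black and all red intervals cross 1. At RARA the p-benzoquinone ratio moves from 1.19 to 2.82 (0.976 to 9.93) when weak CCRs are left out. Under that limit 20.0% of genes of RARA's length are more than 2-fold higher. The limit of 4 leaves out 32.3% of DMSO and 37.9% of p-benzoquinone CCRs, but 1.39% of genistein and 1.46% of mitoxantrone CCRs.

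The vehicle CCRs of RARA were mostly weak. In DMSO its values ran from 1.84, the lowest that the list holds, through a median of 3.24 to 19.62, and 3 of the 13 stood at 1.84. A value below 4 was carried by 8 of the 13, or 61.5% (exact Clopper-Pearson interval 31.6 to 86.1), against 32.3% of the whole DMSO list. At PML 4 of the 15 DMSO values were below 4, and they ran from 2.07 through 5.78 to 30.43. Under p-benzoquinone the share at RARA was 3 of 18, or 16.7% (3.58 to 41.4), against 37.9% of that list, and at PML 4 of 11. With CCRs of at least 4 alone, RARA had 5 in DMSO and 15 under p-benzoquinone. Its density was then 0.961 times the genome density in DMSO and 2.71 times under p-benzoquinone, and the scaled ratio of the poison over vehicle was 2.82 (0.976 to 9.93). That is past 2-fold, as for 20.0% of genes of RARA's length under the same limit, and the interval still included 1. PML with the same limit was at 0.373 under genistein (0.130 to 1.02) and at 0.386 under etoposide (0.0692 to 1.46). Of genes of PML's length, 10.1% and 16.0% were then more than 2-fold lower under those poisons. The limit cuts the lists unequally. It leaves out 37.9% of p-benzoquinone, 18.8% of etoposide, 1.39% of genistein and 1.46% of mitoxantrone CCRs against 32.3% in DMSO. Such ratios thus set unlike parts of the lists side by side, and what the limit itself adds to them was not tested.

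**Figure D3:**
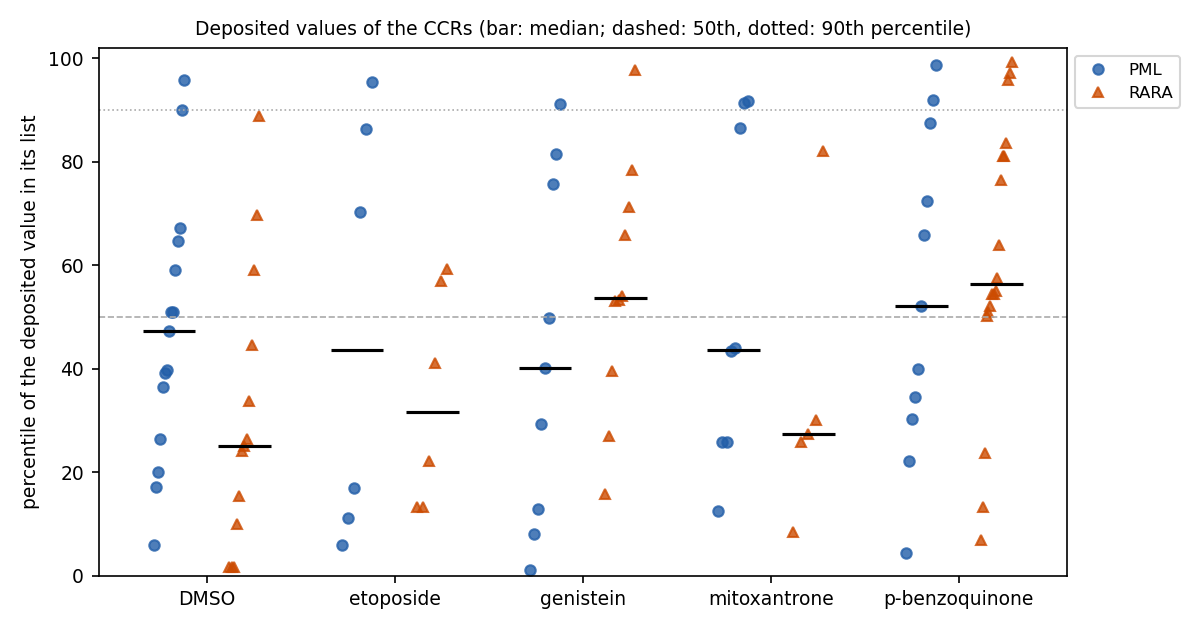
Percentile of the deposited value of each CCR within its own list, at PML (circles) and RARA (triangles), with the median as a bar. In DMSO the RARA median is at percentile 25.0 and the PML median at 47.3, and under p-benzoquinone they are at 56.3 and 52.1.

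The 6 etoposide CCRs of PML had values of 11.17, 2.74, 3.72, 2.21, 24.46 and 16.3 along the window, and the 6 of RARA had 4.39, 8.48, 8.82, 3.19, 3.19 and 6.44. So PML held both the weakest and the 3 strongest of these 12. Genistein values ran from 3.94 through a median of 10.84 to 34.57 at PML, and from 6.8 through 13.93 to 53.9 at RARA. With p-benzoquinone they ran from 2.05 through 5.07 to 23.42 at PML and from 2.16 through 5.615 to 26.57 at RARA. The RARA CCRs of p-benzoquinone also covered more sequence, 6.14% of the window against 2.23% over the callable genome. Their median width of 147 bp was close to the 150 bp of the list, and the longest measured 584 bp. At PML p-benzoquinone CCRs covered 2.57%.

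Strong CCRs, above the 90th percentile of their list, numbered at most 3 per gene and list. PML had 2 of 15 in DMSO, 1 of 6 under etoposide, 1 of 9 under genistein, 2 of 8 under mitoxantrone and 2 of 11 under p-benzoquinone. RARA had 3 of 18 under p-benzoquinone, 1 of 10 under genistein and none in the other lists. The rule places 10.1% of DMSO and etoposide CCRs, 10.0% of genistein and mitoxantrone CCRs and 9.95% of p-benzoquinone CCRs there by construction. The highest in rank was a p-benzoquinone CCR at RARA of 584 bp (chr17:40344376-40344959, 35.2 kb into the gene), whose value of 26.57 lay at percentile 99.2. Next came a p-benzoquinone CCR just upstream of PML, inside STOML1 (chr15:73993144-73993356, value 23.42, percentile 98.7). A genistein CCR late in RARA (chr17:40351699-40351878) had a value of 53.9, at percentile 97.7.

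Along PML the CCRs gathered in the last of 3 equal parts of the gene. That stretch of 17.7 kb held 20 of the 49 CCRs over the 5 lists, or 11.3 per 10 kb, against 5.65 in the first part and 3.39 in the middle part. It was the fullest part of PML for DMSO with 7 CCRs, genistein with 5 and mitoxantrone with 4. Etoposide had 2 there and 2 in the 10 kb before the gene. For p-benzoquinone the order differed, with 4 in the first part, 1 in the middle and 2 in the last. The 10 kb before PML, which lie largely in STOML1, a gene for a stomatin-like membrane protein, held 4 DMSO, 3 p-benzoquinone and 2 etoposide CCRs and none of genistein or mitoxantrone. Each number is small, and these differences along the gene carry no test.

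The densest 5 kb of PML held CCRs from all 5 lists. It runs from 36.8 to 41.7 kb into the gene (chr15:74031479-74036433) and holds 11 of the 49, 4 of them from genistein, 3 from DMSO, 2 from mitoxantrone and 1 each from etoposide and p-benzoquinone. A DMSO CCR (chr15:74036175-74036433, value 30.43, percentile 95.9), a p-benzoquinone CCR (chr15:74036056-74036389, value 13.26, percentile 91.8) and a genistein CCR (chr15:74036075-74036269, value 10.84, percentile 40.2) overlapped there. This was the only place in either window where CCRs of 3 lists overlapped. Upstream of it, mitoxantrone and DMSO CCRs overlapped at chr15:74032425-74032612, with values of 8.42 and 9.47. A mitoxantrone CCR with a value of 29.83 followed at chr15:74033604-74033774, 38.9 to 39.1 kb into the gene. A genistein CCR with a value of 25.09 followed at chr15:74034240-74034405. At the upstream edge of this stretch an etoposide and a genistein CCR overlapped at chr15:74031479-74031612, with values of 2.21 and 6.43. The stretch was picked as the densest, so its number carries no test.

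**Figure D4:**
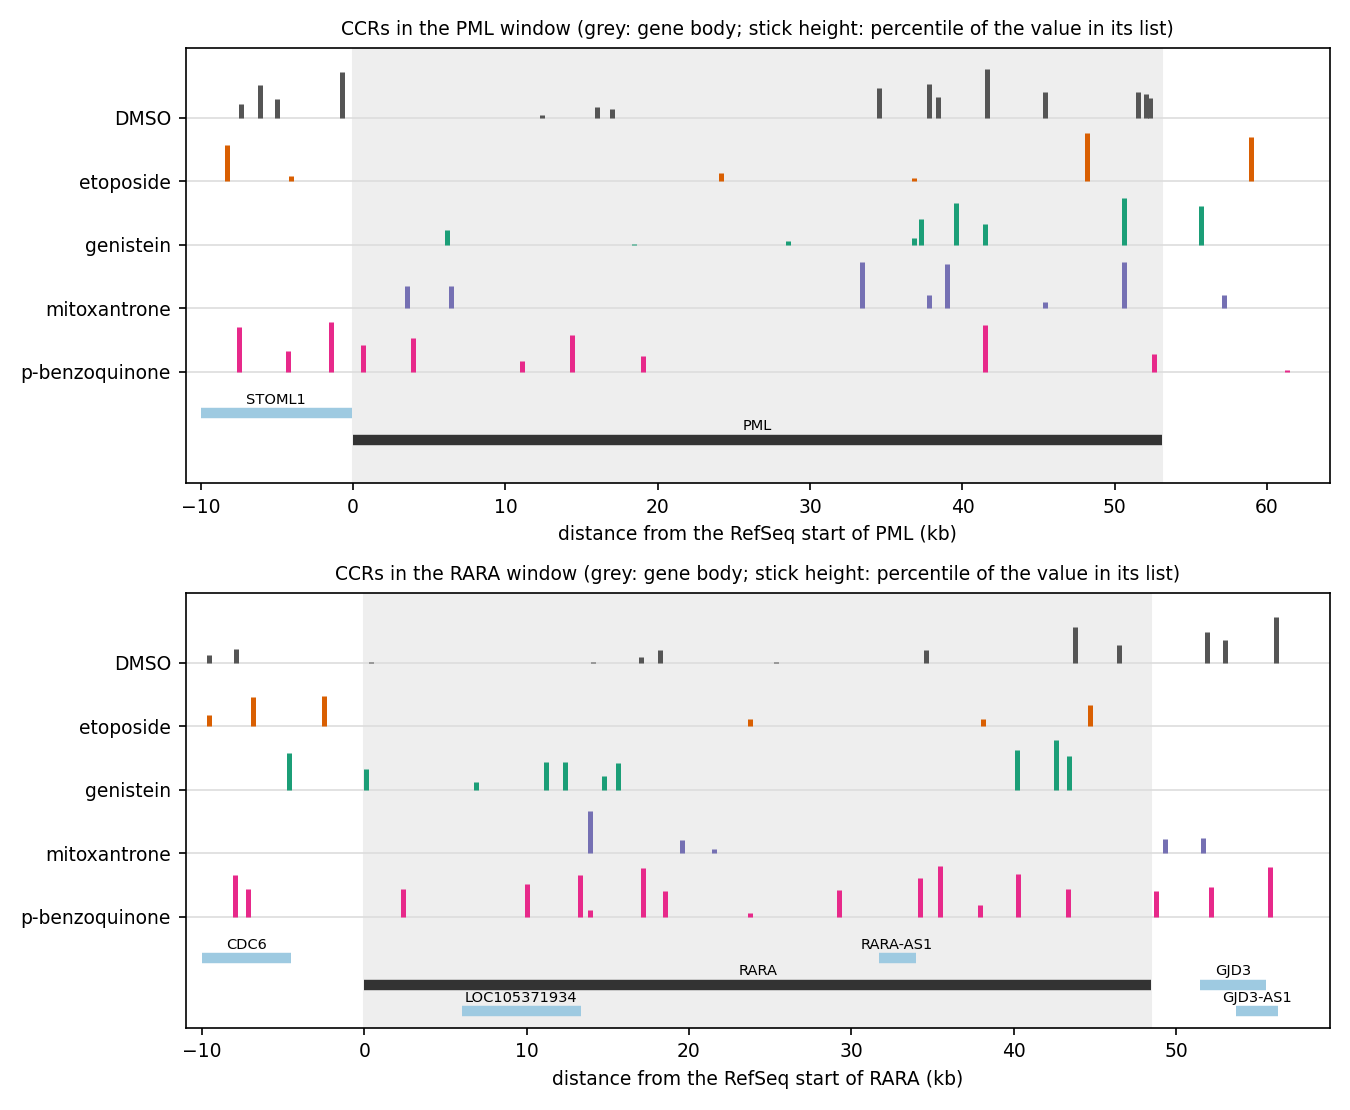
Position of every CCR along the PML and RARA windows in kb from the RefSeq gene start, one row per list, with stick height giving the percentile of the value in its list and bars showing the RefSeq genes. At PML sticks of all 5 lists gather between 36.8 and 41.7 kb, and at RARA the mitoxantrone row is empty from 21.6 to 49.2 kb while the p-benzoquinone row has 8 sticks there.

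Mitoxantrone had 8 CCRs at PML. Their values were 11.67, 11.98, 35.98, 8.42, 29.83, 6.16, 36.31 and 8.42 from the first to the last along the window. The 2 highest stood at percentiles 91.4 and 91.7 of the list, 33.3 and 50.5 kb into the gene. At RARA its 5 CCRs had values of 26.25, 8.42, 5.82, 8.74 and 9.07, so 1 was above the list median of 13.28. The mitoxantrone list carries a second signal, taken here as the input, though no header names it. In the authors' deposited table the strongest RARA CCR (chr17:40323003-40323204) had an input signal of 0 and a p-value of 6.27e-09. A p-value stands there only where the input signal is 0, so no other mitoxantrone CCR of the 2 genes carries one. All 8 PML CCRs had an input signal above 0, and 22.5% of the whole list had none. The 2 highest, at 33.3 and 50.5 kb, had inputs of 2.13 and 0.71. Their deposited log2 values over that input were 4.08 and 5.68, where the lowest of the list was 4.00. The median deposited input was 0.35 at PML and 0.47 at RARA, against 0.23 in the list. With 1 Mb on each side it was 0.23 around PML and 0.47 around RARA, and its part in the numbers at RARA was not tested.

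Both windows had long stretches that single lists left empty. At PML the longest were 28.1 kb for etoposide, 26.7 kb for mitoxantrone and 22.2 kb for p-benzoquinone, where the genome densities would place 1.86, 1.96 and 2.88 CCRs. At RARA, from 21.6 to 49.2 kb (chr17:40330784-40358357) there was no mitoxantrone CCR, where the genome density of that list would place 2.02 CCRs. The same stretch held 8 p-benzoquinone, 4 DMSO, 3 etoposide and 3 genistein CCRs. Genistein left chr17:40324895-40349289 empty, where 3.67 would be placed, although 6 of its 10 RARA CCRs lay in the first of 3 equal parts of the gene and 3 in the last. Etoposide had no CCR from 2.4 kb before the gene to 23.7 kb into it, where 1.72 would be placed, and 3 of its 6 lay in the 10 kb before the gene. These stretches were picked as the longest of their lists and carry no test. Summed over the 5 lists the parts of RARA were more even than those of PML, with 8.05 per 10 kb in the first part, 6.19 in the middle and 8.05 in the last. The 10 kb before and after the gene held 8 CCRs each.

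The genes inside the RARA window shared its CCRs unequally. CDC6, which loads the replicative helicase, reaches into the 10 kb before RARA and took 7 of the CCRs there. GJD3, a connexin gene, lies after RARA and took 5, and GJD3-AS1, its antisense partner, 2. LOC105371934 was touched by 3 genistein and 2 p-benzoquinone CCRs. RARA-AS1 was touched by none within its body.

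Few CCRs returned at the same place under another treatment, as in the lists as a whole. Of the 49 PML CCRs 15, or 30.6%, overlapped a CCR of another list by at least 1 bp, as did 16 of the 52 at RARA, or 30.8%, against 22.8% over all lists. These CCRs made up 7 places at PML and 8 at RARA. With DMSO CCRs, 2 of 8 mitoxantrone, 2 of 11 p-benzoquinone, 1 of 9 genistein and 0 of 6 etoposide CCRs overlapped at PML. At RARA the counts were 3 of 18 for p-benzoquinone, 1 of 6 for etoposide and 0 for genistein and mitoxantrone. Over whole lists, 8.39% of etoposide CCRs met a DMSO CCR, as did 6.79% of genistein, 7.06% of mitoxantrone and 7.88% of p-benzoquinone CCRs. Some pairs lay close without touching. Of the p-benzoquinone CCRs, 8 of 18 at RARA and 3 of 11 at PML had their centre within 500 bp of a DMSO centre, against 16.4% of that list. For genistein the numbers were 2 of 10 at RARA and 1 of 9 at PML (list 14.6%). Mitoxantrone had 2 of 5 and 2 of 8 (14.7%), and etoposide 1 of 6 and 0 of 6 (16.3%).

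A genistein and a mitoxantrone CCR at PML had the same start and the same end, chr15:74045215-74045370, 50.5 kb into the gene. Their values were 34.57 and 36.31, at percentiles 91.0 and 91.7 of their lists. Of the 19984 mitoxantrone CCRs that overlapped a genistein CCR, 80, or 0.400%, shared both ends. At RARA, p-benzoquinone and genistein CCRs overlapped at 2 places in the last part of the gene, at chr17:40349290-40349623 with values of 9.88 and 23.05 and at chr17:40352339-40352763 with 5.45 and 17.57. Mitoxantrone and p-benzoquinone overlapped at chr17:40322985-40323204, where the values were 26.25 and 2.5. A place where DMSO was weak and p-benzoquinone strong lay at chr17:40326176-40326522, with values of 2.3 and 16.65, at percentiles 10.1 and 95.7. The p-benzoquinone CCR that overlapped GJD3 and GJD3-AS1 (chr17:40364729-40365226) was joined from 2 values, the higher 18.58, and met a DMSO CCR of 19.62. Only it and 1 other p-benzoquinone CCR at RARA were joined from several values, as were 1.60% of that list.

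Among the 15 genes known to fuse with RARA in promyelocytic leukaemia, all measured, PML had the second highest mean density over the 5 lists, at 1.31 times the genome. ZBTB16, which encodes the zinc finger repressor PLZF, was highest at 1.72, with 50 DMSO, 24 etoposide, 39 genistein, 31 mitoxantrone and 49 p-benzoquinone CCRs in a window of 217 kb. NUMA1, a spindle-pole protein gene, was at 1.27. The lowest were GTF2I, a general transcription factor gene, at 0.452, NABP1, for a single-strand DNA binding protein, at 0.656, and NPM1, for nucleophosmin, at 0.731. The partners' median was 1.05 times the genome in DMSO, 1.04 under etoposide and 1.07 under mitoxantrone, beside 1.01, 0.930 and 0.903 for all measured genes. Under genistein it was 0.924 beside 0.910, and under p-benzoquinone it was the lower, at 0.948 beside 1.11. Under genistein 3 of the 15 were more than 2-fold lower than in DMSO, PML, NPM1 and NUMA1. They had 9 CCRs against 15, 2 against 4 and 8 against 15. IRF2BP2 was higher, with 7 against 2. STAT3 was lower under etoposide, with 3 CCRs against 13, and under mitoxantrone, with 3 again. IRF2BP2 was higher under mitoxantrone, with 3 CCRs against 2, which passed 2-fold only after scaling to list size. The NPM1 and IRF2BP2 calls rest on few CCRs. None passed under p-benzoquinone. STAT3 and IRF2BP2 are named after their values were seen. Over all measured genes, 14.9% were lower and 11.3% higher under etoposide, and 16.2% and 7.98% under genistein. With mitoxantrone 14.8% were lower and 10.5% higher, and with p-benzoquinone 7.77% and 14.2%.

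RARA was set beside the other retinoid receptor genes. Of the 6 genes named, RARA among them, 5 were measured, and RXRB was not because less than 50% of its window was callable. All 5 lay above the genome density in DMSO and under p-benzoquinone, as did 50.8% and 58.0% of all measured genes. Their median was 1.40 times the genome in DMSO and 1.72 under p-benzoquinone, beside 1.01 and 1.11 for all measured genes. Etoposide had 4 of 5 above the genome density, with a median of 1.33, beside 45.2% and a median of 0.930 for all measured genes. Under genistein and mitoxantrone 2 of 5 were above it, with medians of 0.972 and 0.995, as were 40.6% and 42.5% of all measured genes. The medians under etoposide, genistein and mitoxantrone are RARA's own densities, so they do not describe the other receptors. By mean density RXRG came first at 1.48, then RARA at 1.40 and RXRA at 1.246, followed by RARB at 1.15 and RARG at 0.779. Under mitoxantrone 2 of the 5 were more than 2-fold lower than in DMSO, RXRA with 5 CCRs against 21 and RARG with 1 against 5, as were 14.8% of all measured genes. Under genistein RARG was lower, with 3 against 5, as were 16.2% of all measured genes, and no receptor gene passed 2-fold under etoposide or p-benzoquinone.

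PML was set beside genes whose products work in PML nuclear bodies, of which 10 of 11 were measured. DAXX was not, for the same reason as RXRB. In DMSO the group's median was 0.789 times the genome density, and 2 of 10 lay above that density, PML with 15 CCRs and CREBBP, a histone acetyltransferase gene, with 28. Under etoposide, genistein and p-benzoquinone 5 of 10 lay above it, with medians of 0.964, 0.968 and 1.05. Under mitoxantrone 3 of 10 did, with a median of 0.686. Of all measured genes, 50.8% lay above it in DMSO, 45.2% under etoposide, 40.6% under genistein, 42.5% under mitoxantrone and 58.0% under p-benzoquinone. Their medians were 1.01, 0.930, 0.910, 0.903 and 1.11 in the same order. BLM, the Bloom helicase gene, had 13 CCRs in DMSO, 0.975 times the genome, and 18 under genistein and p-benzoquinone. PML, BLM and CREBBP had the highest mean density of the group, at 1.31, 1.14 and 1.11. SUMO2, for a small modifier protein, was at 0.469 and had no CCR in DMSO. Against DMSO, 4 of the 10 were more than 2-fold higher under p-benzoquinone, 3 under etoposide, 3 under mitoxantrone and 2 under genistein. The shares of all measured genes were 14.2%, 11.3%, 10.5% and 7.98%. SUMO2 was among the higher genes with every poison, and its call depends on the 0.5 added to each number. Lower were 1 under etoposide, 1 under mitoxantrone and, under genistein, PML alone, as were 14.9%, 14.8% and 16.2% of all measured genes.

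TOP2A itself, the gene for the captured enzyme, lies 30.9 kb beyond the end of RARA. Its window had 5 CCRs in DMSO, 1 under etoposide, 7 under genistein, 2 under mitoxantrone and 5 under p-benzoquinone. These were 0.902, 0.306, 0.943, 0.552 and 0.779 times the genome density in the same order. The numbers are small and no interval is given for them, so no depletion is read from them.

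The genes whose 5 numbers were most like those of PML included AAGAB, PTCD2, FSTL1 and TSC22D3, from 2873 genes of like length. Likeness was the Euclidean distance between log2 numbers over expectation in the 5 lists, and these 4 lay at 0.264 to 0.430 against a median of 1.69. For RARA the nearest were HEATR1, LRTM1, HNRNPUL1, SLC29A3 and RAB44, at 0.287 to 0.369 against a median of 1.76. AAGAB had 16 DMSO, 7 etoposide, 10 genistein, 9 mitoxantrone and 11 p-benzoquinone CCRs. HEATR1, for a protein of ribosome biogenesis, had 15, 7, 12, 6 and 17 in the same order. RARA ranked 280 of 2873 in likeness to PML, at a distance of 0.985. Such distances are measured on few CCRs per gene.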

How the data were processed

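The authors deposited 1 union list of TOP2A cleavage regions per treatment, pooled over libraries. Per the labels' protocols, K562 lysates were sonicated, TOP2A was immunocaptured and the released DNA was pre-amplified or not before library preparation. The descriptions tie only amplified libraries to 4 of the lists, and the mitoxantrone list was tied to its library by treatment. The submitters' processing notes name hg38, Bowtie2 2.1.0 and SAMtools 0.1.19. How regions were called is not given in the sources used here. Each region's score, as deposited, has no stated unit, and the files have no header. In the mitoxantrone list the authors deposited also a second signal, a log2 value, a p-value and an other whole number, which was not used. The second signal was taken as input because the log2 value is that of the score over it and a p-value stands only where it is 0.

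The files do not say whether starts count from 0 or 1. The BED convention was assumed and starts were raised by 1, so a start could be 1 base off. Overlapping genistein entries were joined, at 10551 CCRs. The highest of several scores was taken. A gene was measured where at least 50% of its window lay in 100 kb bins with a CCR, 2763 Mb in all, which left 18975 of 20037 protein-coding genes. Densities have exact Poisson intervals and ratios exact binomial intervals. For calls over many genes 0.5 was added to each number, and a call is a change past 2-fold. The genes named are PML, RARA, genes overlapping their windows, TOP2A, the 3 highest and 3 lowest of each gene list by mean density, and the 5 most like each member by a distance. Some genes that this rule names are not reported here. Some named beyond these were chosen after their values were seen. The members and lists were chosen with earlier results of these data known. RefSeq tables of GRCh38.p14 gave genes and start windows, in which PML has no entry. Counting was tested on simulated data. Work was done in Python 3.11.15 with scipy 1.17.1, numpy 2.4.6, pandas 2.3.3 and, for plots, matplotlib 3.10.9.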

Additional observations from a re-analysis of the deposited data

How the results depend on the processing

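Alternatives changed the flank, the assignment of CCRs, the lowest value kept, the joining of genistein entries, the scaling and the overlap that counts as shared. Of 50 log2 ratios over DMSO recomputed, 46 kept their sign and 49 stayed within the main interval. With values of at least 4, the RARA density in DMSO fell to 0.730 per 10 kb and the RARA log2 ratio for p-benzoquinone rose from 0.26 to 1.50. The etoposide, genistein and mitoxantrone ratios of RARA then changed sign, to 0.18, 0.04 and 0.07. That limit leaves out 32.3% of DMSO CCRs but 18.8%, 1.39% and 1.46% of those 3 lists, and 37.9% of p-benzoquinone CCRs. So these ratios compare unlike parts of the lists. Counted in covered bases, the PML log2 ratio for mitoxantrone was 0.02. PML under genistein was past 2-fold lower at -1.16, and no longer so with no flank or with scaling to 1 Mb on each side, both at -0.88. Past 2-fold lower came also PML under etoposide, at -1.11 with no flank and -1.37 with values of at least 4, and RARA under genistein, at -1.05 with 25 kb on each side.

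Requiring an overlap of 50% of the shorter CCR left 0 genistein and 1 p-benzoquinone CCR of PML, and 1 p-benzoquinone CCR of RARA, shared with DMSO, where whole lists share 4.82% of genistein and 5.62% of p-benzoquinone CCRs. With centres at most 500 bp apart, RARA shared 2 of 10 genistein, 2 of 5 mitoxantrone and 8 of 18 p-benzoquinone CCRs with DMSO, and whole lists 14.6%, 14.7% and 16.4%. No paired analysis was possible because the lists pool the libraries of a treatment, and no library could be left out for the same reason. With 5 to 18 CCRs per gene and list, the depth allows only large differences to be seen.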
